A study of Homo sapiens with 24 samples.

Results

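The human mitochondrial genome holds 13 protein-coding genes, 2 rRNA genes and 22 tRNA genes. These 37 genes were followed here in HEK293T cells with and without SETD2, the enzyme that trimethylates H3K36 on histones. Each protein-coding gene is called an mRNA below, although overlapping genes can share a transcript, so that counts are of genes. The genes were taken as the rows of the deposited tables whose symbol starts with MT-, which gave 37 of 58884 genes in each table. HEK293T cells descend from human embryonic kidney, and WT denotes the unmodified line. KO denotes a derivative in which both alleles of the endogenous SETD2 gene had been disrupted, and which the labels describe as untreated. SETD2 FL and SETD2 C denote KO cells transfected with full-length SETD2 or with residues 1404 to 2564 of it, each driven by a viral (CMV) promoter, with RNA isolated 72 h later. All 3 groups of the second table therefore carry the SETD2 disruption, and as the KO libraries are labelled untreated, transfection and SETD2 cannot be told apart in either comparison with KO. SETD2 FL and SETD2 C were both transfected.

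Total RNA was sequenced in 10 libraries with paired reads of 75 bases. A first table holds WT and KO, and a second holds KO, SETD2 FL and SETD2 C, with 2 libraries of each. The labels do not say whether libraries of a group came from separate cultures, so p-values measure the spread between these libraries, which may be technical. Values are TPM, a level per transcript length relative to the whole library, whose total is the same in each. TPM retains no depth, so the number of reads behind a value is unknown. The tables were made separately, so that levels were compared within a table only.

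Mitochondrial DNA is transcribed from both strands by a dedicated polymerase, POLRMT, into long precursors that span most of the circle. Most tRNAs lie between the rRNAs and mRNAs, and excision of the tRNAs by RNase P and ELAC2 releases the flanking transcripts, after which most mRNAs receive a short poly(A) tail. All of the mRNAs encode subunits of the respiratory chain or of ATP synthase, and both rRNAs are part of the mitochondrial ribosome. As the precursors are shared, the steady-state levels of the mature RNAs also depend on the RNA-binding proteins that stabilise each of them, of which LRPPRC and SLIRP are the best known.

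This layout bears on what short reads can count. The junction of MT-RNR2, MT-TL1 and MT-ND1 is shown because an rRNA, a tRNA and an mRNA meet there within a few bases. MT-TL1, in capitals, fills all but 2 bases of the gap between MT-RNR2 and MT-ND1. The overlaps of MT-ATP8 with MT-ATP6 and of MT-ND4L with MT-ND4 are shown with the bases that belong to both genes in capitals, since reads there fit either gene. MT-TS2, the shortest of the 22 tRNAs, is shown whole in capitals. The sequences are the reference sequence of chromosome M in GRCh38, plus strand, and are not read from these libraries.
MT-RNR2, MT-TL1 and MT-ND1 (chrM:3215-3321): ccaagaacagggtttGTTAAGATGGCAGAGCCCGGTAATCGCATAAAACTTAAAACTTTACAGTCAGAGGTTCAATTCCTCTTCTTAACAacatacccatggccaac
MT-ATP8 and MT-ATP6 (chrM:8515-8584): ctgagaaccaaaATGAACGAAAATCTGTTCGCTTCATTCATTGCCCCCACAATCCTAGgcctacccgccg
MT-ND4L and MT-ND4 (chrM:10748-10778): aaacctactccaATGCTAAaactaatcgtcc
MT-TS2 (chrM:12207-12265): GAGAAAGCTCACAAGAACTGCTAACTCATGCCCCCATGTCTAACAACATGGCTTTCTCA

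The SETD2 transcript was 12.6 and 14.8 TPM in the WT libraries and 16.2 and 16.3 TPM in the KO libraries of the first table. It was thus no lower where the label says KO. A disrupted gene can still be transcribed, so this level does not check the label, and the direction of this comparison is taken from the labels alone. In the second table, SETD2 stood at 11.99 and 12.15 TPM in KO and was far above that with either construct (439 and 422 TPM for SETD2 FL, 1329 and 1264 TPM for SETD2 C). Of the markers of the HEK293 lineage, VIM, NEFM, NEFL and GATA3 were present in every library and PAX2 and LHX1 were low, at 0.62 to 2.21 TPM. The summed TPM of these 6 markers was 988 and 991 in KO of the second table, 813 and 938 for SETD2 FL, and 1366 and 1445 for SETD2 C, the highest of that table. The summed TPM of 8 markers of blood, liver, fibroblast and endothelial cells was 7.4 to 10.62 in KO and SETD2 FL of the second table and 14.81 to 16.61 with SETD2 C, of which COL1A1 gave most, with PTPRC and CD3E at or below 0.05 TPM everywhere. Between 24306 and 25440 genes were above 0 TPM in the KO and SETD2 FL libraries of that table, and 26139 and 27104 genes in those with SETD2 C. The part of these marker and gene counts in the results below was not tested.

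None of the 22 tRNAs was detected. Each was listed at 0 TPM in all 10 libraries, including those adjacent to abundant mRNAs, such as MT-TL1 beside MT-ND1. The tRNA genes are 59 to 75 nt long, 21 of them shorter than a read and all 22 no longer than a read. This was shared by short genes in general. Of the 1280 other genes no longer than a read, 1279 were listed at 0 in every library (99.9%), as were 5107 of 5312 genes from there up to 150 nt (96.1%). The zeros say nothing about the tRNAs in these cells. The 13 mRNAs and 2 rRNAs were above 0 in every library, and these 15 genes passed the filter of 0.5 TPM in at least 2 libraries, through all groups of both tables.

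As a group, the 13 mitochondrial mRNAs were abundant in all libraries, and in the second table their share of all TPM was lowest with SETD2 C. They took up 22.6% and 13.8% of all TPM in the WT libraries and 11.8% and 12.2% in the KO libraries of the first table. In the second table they took up 6.73% and 5.88% in KO, 10.4% and 7.43% for SETD2 FL, and 2.44% and 2.78% for SETD2 C. Among the 20 most abundant genes of a library, 12 and 10 were mitochondrial in WT and 9 in each KO library of the first table. In the second table there were 5 in each KO library, 8 and 5 in the SETD2 FL libraries and 1 in each SETD2 C library. With SETD2 C that gene was MT-CO1, at rank 16 and rank 11. The other mRNAs except MT-ND6 ranked from 41 (MT-CO2) to 258 (MT-CYB) with SETD2 C. MT-ATP8, a short subunit of ATP synthase, ranked first of all genes in the 4 libraries of the first table. In the second it was at ranks 3 and 4 in KO, rank 2 in both SETD2 FL libraries, and ranks 85 and 77 with SETD2 C. At 207 nt MT-ATP8 is the shortest of the 13 mRNAs, TPM divides by length, and the lengths of the sequenced fragments are not given. The part of this in its ranks, shares and fold changes was not tested. MT-ND6, the only mRNA encoded on the other strand, was the lowest of the 13 mRNAs in every library.

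**Figure D1:**
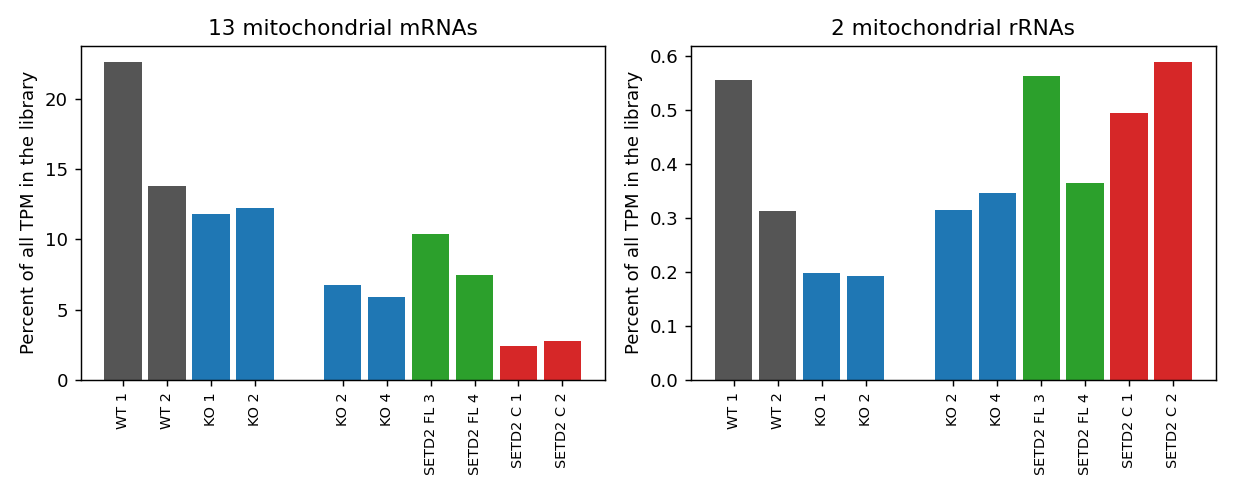
Percent of all TPM in each library taken up by the 13 mitochondrial mRNAs (left) and the 2 mitochondrial rRNAs (right); each bar is 1 library, the first table is left of the gap and the second right of it, and levels are comparable within a table only. The mRNA share is lowest in the SETD2 C libraries, at 2.44% and 2.78%, whereas their rRNA share, at 0.495% and 0.589%, is above both KO libraries of the second table.

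Between SETD2 C and KO the mitochondrial mRNAs were lower and the mitochondrial rRNAs were not. On the scaled values used for the test, all 13 mRNAs lay lower in both SETD2 C libraries than in both KO libraries, which held for 29.6% of all 17579 genes tested. Of the 13, 8 fell past both limits, a fold change of 2 and an adjusted p of 0.05 (limma, Benjamini-Hochberg over all genes), against 0.449% of all genes. These were both ATP synthase subunits, the cytochrome b gene, 2 of 3 cytochrome c oxidase subunits and 3 of 7 subunits of complex I, the NADH dehydrogenase. The median log2 fold change of the 13 was -1.37, and that of all genes tested was 0.05. As a share of all TPM, the mRNAs were 2.42 times lower on average with SETD2 C, where an exact two-sided permutation test of 2 against 2 libraries gave p = 0.3333, the smallest this design allows. The summed mRNA share in bulk RNA cannot tell fewer mitochondria or mitochondrial genomes per cell from less RNA from each. It is also relative to all other RNA.

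The 2 mRNAs of ATP synthase (complex V) fell furthest. MT-ATP8 (chrM:8366-8572) was 11761 and 10142 TPM in KO, 17716 and 13229 TPM with SETD2 FL, and 2290.25 and 2542 TPM with SETD2 C. The SETD2 C libraries lay below all 4 others by a wide margin, and its log2 fold change against KO was -2.33 (SE 0.158, adjusted p = 0.000517 from limma), 5.03-fold lower. MT-ATP6 (chrM:8527-9207), which encodes the subunit that forms part of the proton channel, was 8348 and 6808 TPM in KO, 11815 and 8813 TPM with SETD2 FL, and 1671 and 1875 TPM with SETD2 C, a log2 fold change of -2.24 against KO (SE 0.168, adjusted p = 0.000723). As shown above, 46 bases belong to both genes, which can share a transcript, so these values are not independent.

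Cytochrome c oxidase (complex IV) was split among its members. MT-CO2 (chrM:7586-8269), which carries the site where electrons enter from cytochrome c, was 14040 and 12032 TPM in KO, 20389 and 14214 TPM with SETD2 FL, and 3462 and 3808 TPM with SETD2 C, a log2 fold change of -1.99 against KO (SE 0.183, adjusted p = 0.00138). MT-CO3 (chrM:9207-9990) was 7335 and 6611 TPM in KO, 13092 and 8914 TPM with SETD2 FL, and 2396 and 2438 TPM with SETD2 C, and fell by 1.68 on the log2 scale (SE 0.182, adjusted p = 0.00217). For both genes the SETD2 C libraries stood well apart from the rest. MT-CO1 (chrM:5904-7445), the catalytic subunit, was 7422 and 6833 TPM in KO, 12351 and 8892 TPM with SETD2 FL, and 5283 and 6150 TPM with SETD2 C. Its SETD2 C libraries were still the lowest 2 of 6, but the log2 fold change of -0.47 against KO did not pass (SE 0.17, adjusted p = 0.0792), and it passed in 5 of 18 alternatives.

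Complex I was split in the same manner. MT-ND3 (chrM:10059-10404) was 4407 and 4482 TPM in KO, 7063 and 4700.31 TPM with SETD2 FL, and 1414 and 1486 TPM with SETD2 C, a log2 fold change of -1.77 against KO (SE 0.187, adjusted p = 0.00201). MT-ND2 (chrM:4470-5511) was 1855 and 1506 TPM in KO, 2696 and 1937 TPM with SETD2 FL, and 672 and 763 TPM with SETD2 C, a log2 fold change of -1.37 (SE 0.18, adjusted p = 0.00365). MT-ND6 (chrM:14149-14673) was 101 and 87.2 TPM in KO, 206 and 140 TPM with SETD2 FL, and 37.0 and 43.2 TPM with SETD2 C, a log2 fold change of -1.37 (SE 0.192, adjusted p = 0.00454). For these 3 genes no SETD2 C library reached any other library. Whether the reads kept their strand is not stated, so that reads of MT-ND6 and of the long precursor opposite it cannot be told apart.

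The other 4 subunits of complex I were lower with SETD2 C by less than 2-fold. MT-ND4 (chrM:10760-12137) was 4333 and 3738 TPM in KO, 6465 and 4722 TPM with SETD2 FL, and 2580.31 and 3306 TPM with SETD2 C, and its log2 fold change against KO of -0.61 passed the adjusted p alone (SE 0.186, adjusted p = 0.0492). MT-ND4 passed the adjusted p in 8 of the 18 alternatives tried. By the adjusted p alone 9 of the 13 mRNAs were lower, against 12.9% of all genes, a count that depends on MT-ND4. MT-ND4L, MT-ND1 and MT-ND5 had log2 fold changes of -0.52, -0.51 and -0.40 against KO, with adjusted p of 0.0606, 0.0953 and 0.147 from limma. MT-ND5 (chrM:12337-14148), the longest of the mRNAs, was 929 and 759 TPM in KO, 1340.17 and 987 TPM with SETD2 FL, and 628 and 790.25 TPM with SETD2 C. As TPM its higher SETD2 C library was above the lower KO library, and the groups separated only after scaling. MT-CYB (chrM:14747-15887), the only mitochondrially encoded subunit of complex III, was 1578 and 1243 TPM in KO, 2727 and 1966 TPM with SETD2 FL, and 460.31 and 504 TPM with SETD2 C, a log2 fold change of -1.69 against KO (SE 0.182, adjusted p = 0.00212).

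Along the genome, the 5 neighbouring mRNAs from MT-CO2 to MT-ND3 all fell, with log2 fold changes from -2.33 to -1.68. The 3 that follow them, from MT-ND4L to MT-ND5, ranged from -0.61 to -0.40, and MT-CYB beyond them was again at -1.69. This grouping was chosen after the values were seen.

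**Figure D2:**
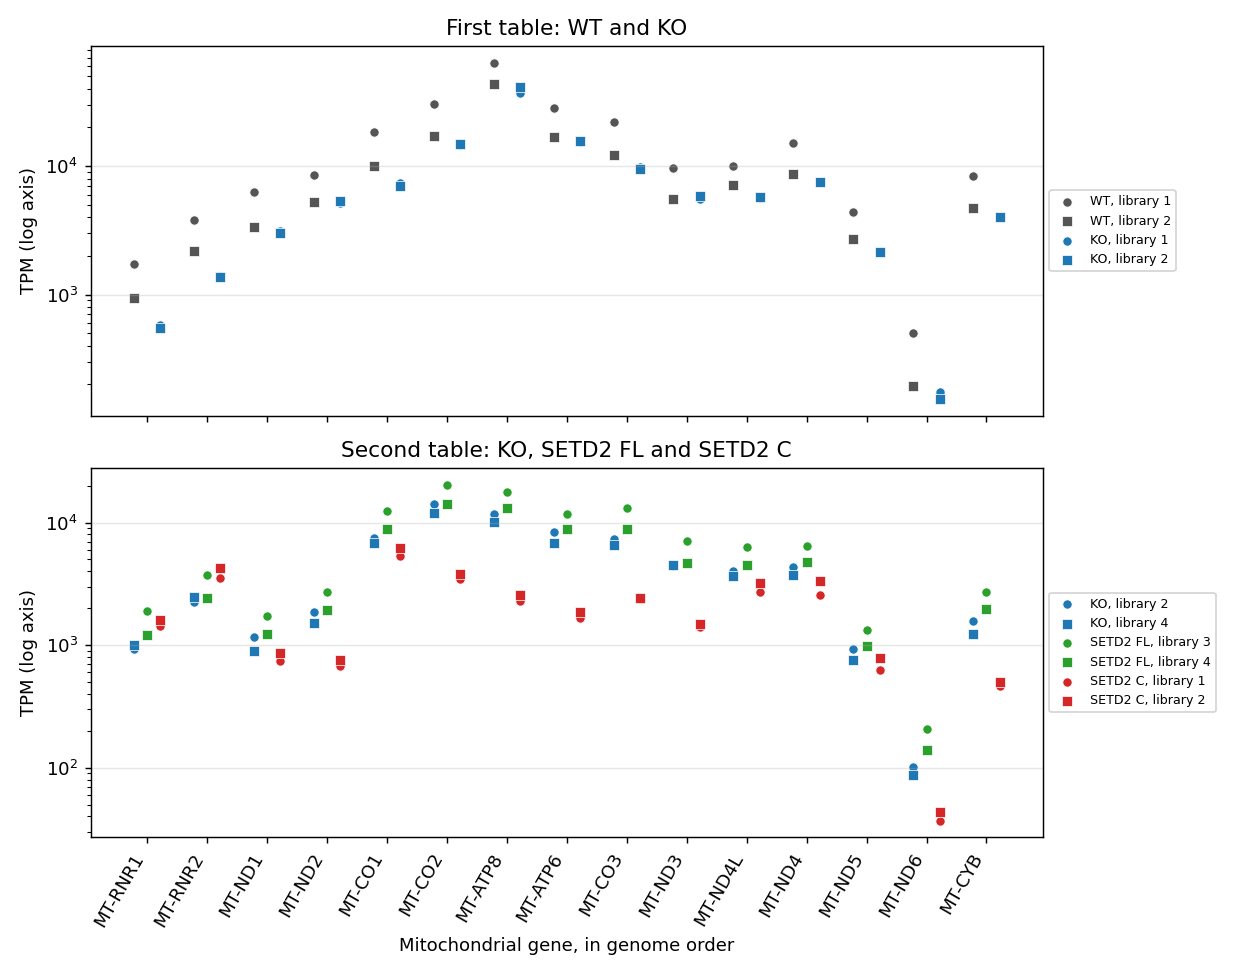
TPM on a log axis of the 2 rRNAs and 13 mRNAs in genome order, for the first table (top) and the second (bottom); each point is 1 library, coloured by group. In the second table the SETD2 C libraries lie below all others for each mRNA except MT-ND5, where 1 of them lies above a KO library, and range from 37.0 TPM for MT-ND6 to 6150 TPM for MT-CO1, whereas for both rRNAs they lie above both KO libraries.

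The rRNAs had the opposite order between SETD2 C and KO. MT-RNR2 (chrM:1671-3229), the rRNA of the large ribosomal subunit, was 2227 and 2461 TPM in KO, 3740.09 and 2444 TPM with SETD2 FL, and 3513 and 4275 TPM with SETD2 C. MT-RNR1 (chrM:648-1601), that of the small subunit, was 923 and 1000.28 TPM in KO, 1881 and 1202 TPM with SETD2 FL, and 1438 and 1614 TPM with SETD2 C. Both rRNAs were higher in both SETD2 C libraries than in both KO libraries, as were 39.4% of all genes. Neither log2 fold change passed in limma, at 0.58 for MT-RNR2 (SE 0.211, adjusted p = 0.0833) and 0.51 for MT-RNR1 (SE 0.208, adjusted p = 0.107). By the adjusted p 17.5% of all genes were higher. In a fit of only SETD2 C and KO, without the spread of the SETD2 FL libraries, 14 of the 15 genes passed the adjusted p, all but MT-ND5. Of the 18 alternatives tried, MT-RNR2 passed the adjusted p in 7 and MT-RNR1 in 4. Against SETD2 FL, whose libraries differed from each other by 1.53-fold and 1.57-fold in these 2 genes, the SETD2 C libraries overlapped, with log2 fold changes of 0.23 and -0.11 (adjusted p = 0.446 and 0.7 from limma, against 17.7% of all genes higher by the adjusted p). Their sign depended on the SETD2 FL library, as MT-RNR2 was at 0.56 and MT-RNR1 at 0.24 without library 3, and at -0.11 and -0.47 without library 4.

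Measured within a library, the balance between rRNA and mRNA was therefore shifted with SETD2 C. The summed TPM of both rRNAs divided by that of the 13 mRNAs was 0.0468 and 0.0588 in KO, 0.0541 and 0.0491 for SETD2 FL, and 0.203 and 0.212 for SETD2 C, which is 3.93 times the KO mean and 4.02 times the SETD2 FL mean. The KO and SETD2 FL libraries overlapped. At the junction printed above, the ratio of MT-RNR2 to MT-ND1 was 1.91 and 2.74 in KO, 2.15 and 1.98 for SETD2 FL, and 4.71 and 4.98 for SETD2 C. In the first table, where the KO cells carry the same labels, this ratio was 0.447 and 0.452 in KO and 0.608 and 0.659 in WT. The ratio of the sums was 0.0167 and 0.0157 in KO and 0.0246 and 0.0227 in WT, so both ratios were lower in KO than in WT there. The labels name both rRNA depletion and poly(A) enrichment without saying which libraries had which, and the part of this step in the ratios was not tested. The summed TPM of 10 genes of 5.8S rRNA, a cytosolic rRNA, was 1603 and 1334 in KO, 942 and 723 for SETD2 FL, and 711 and 293 for SETD2 C. Over a wider list of 558 nuclear genes and pseudogenes of rRNA, with the abundant small RNAs RN7SL1, RN7SL2 and RN7SK, it was 2610.4 and 2041 in KO, 1681 and 1732 for SETD2 FL, and 2391 and 1014 for SETD2 C, and the SETD2 C libraries overlapped those of KO.

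**Figure D3:**
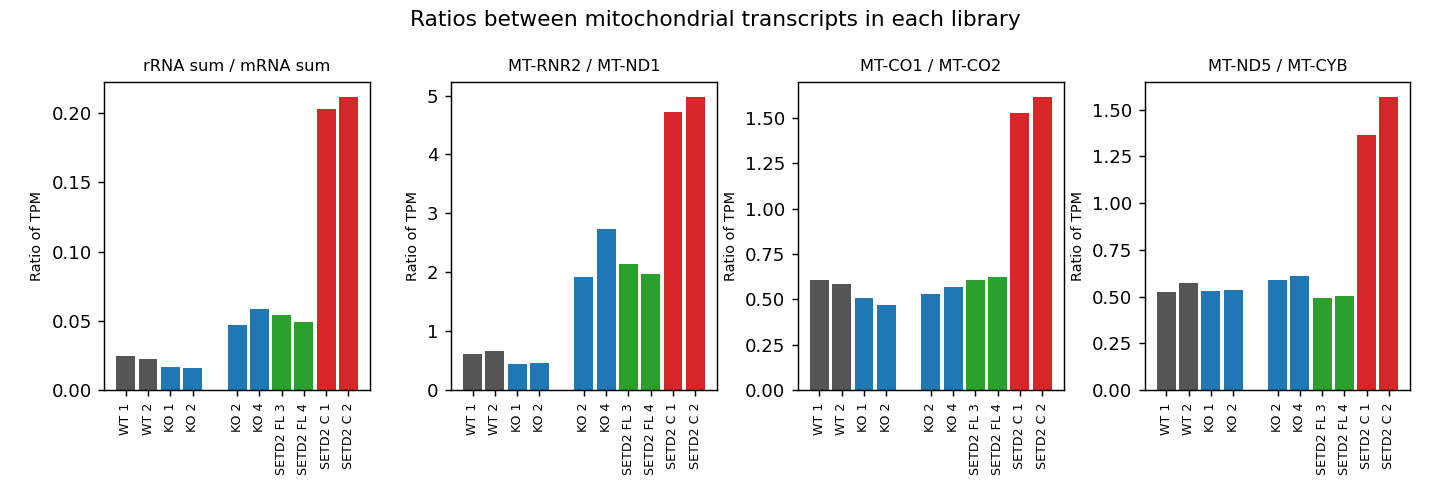
Ratios of TPM within each library for the summed rRNAs over the summed mRNAs, MT-RNR2 over MT-ND1, MT-CO1 over MT-CO2 and MT-ND5 over MT-CYB; each bar is 1 library and the gap separates the tables. In each panel both SETD2 C bars are the highest, at 0.203 and 0.212 in the first panel and 1.53 and 1.62 in the third.

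The make-up of the mRNA pool also differed. Within the summed TPM of the 13 mRNAs, MT-CO1 took up 11.03% and 11.61% in KO, 11.89% and 11.97% for SETD2 FL, and 21.7% and 22.1% for SETD2 C. MT-ATP8 went the other way, with 17.5% and 17.2% in KO, 17.1% and 17.8% for SETD2 FL, and 9.4% and 9.14% for SETD2 C. Between SETD2 C and KO the groups did not overlap for 12 of the 13 mRNAs. The share was higher with SETD2 C for 5 of them (MT-ND1, MT-CO1, MT-ND4L, MT-ND4 and MT-ND5), by factors of 1.757 to 2.03, and lower for 6, by factors of 0.534 for MT-ATP8 to 0.84 for MT-CO3. The shares of MT-ND6 and MT-ND2 were nearly the same in both groups, at factors of 1.031 and 1.036, though the libraries did not overlap for MT-ND6. Between SETD2 FL and KO, the shares differed by factors of 0.926 to 1.298 and did not overlap for 5 of the 13. Shares of a fixed total are not independent of each other.

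Ratios between pairs of mRNAs within a library, which need no scaling, gave the same picture. The ratio of MT-CO1 to MT-CO2 was 0.529 and 0.568 in KO, 0.606 and 0.626 for SETD2 FL, and 1.53 and 1.62 for SETD2 C, so that MT-CO1 was the less abundant of the pair in every library but those with SETD2 C. In the first table it was 0.605 and 0.586 in WT and 0.506 and 0.467 in KO. MT-ND4 against MT-ATP6 gave 0.519 and 0.549 in KO, 0.547 and 0.536 for SETD2 FL, and 1.54 and 1.76 for SETD2 C. MT-ND5 and MT-CYB, which flank MT-ND6, had a ratio of 0.589 and 0.611 in KO, 0.492 and 0.502 for SETD2 FL, and 1.36 and 1.57 for SETD2 C. The overlapping pairs kept closer ratios, but they share reads and can share a transcript. They are therefore not comparisons of separate transcripts. MT-ATP8 was 1.41 and 1.49 times MT-ATP6 in KO and 1.37 and 1.36 times with SETD2 C, and MT-ND4L was 0.921 and 0.988 times MT-ND4 in KO and 1.05 and 0.979 times with SETD2 C. An exact two-sided permutation test of any of these ratios cannot go below p = 0.3333.

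**Figure D4:**
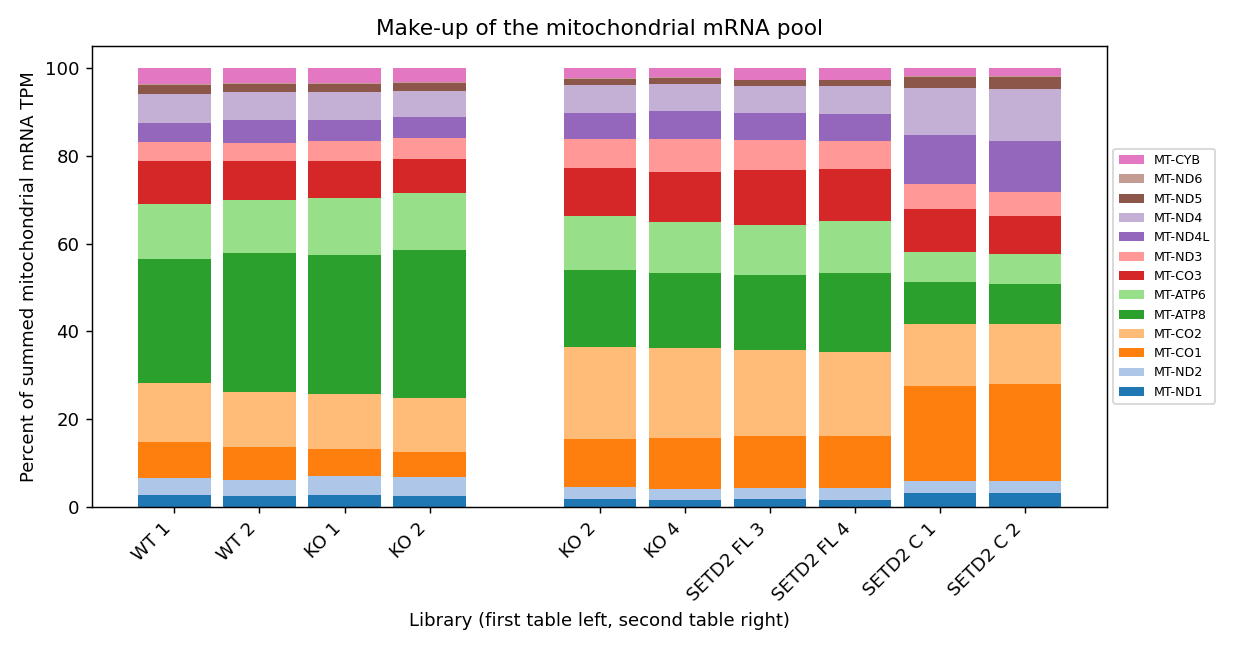
Percent of the summed mitochondrial mRNA TPM taken up by each of the 13 mRNAs, stacked per library, with the first table left of the gap and the second right of it. The KO and SETD2 FL bars of the second table look alike, whereas in the SETD2 C bars MT-CO1 takes up 21.7% and 22.1% and MT-ATP8 9.4% and 9.14%.

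With SETD2 FL the mitochondrial mRNAs were not lower than in KO. In the comparison of SETD2 FL with KO, all 13 log2 fold changes were positive, from 0.36 for MT-ND3 to 0.84 for MT-ND6 with a median of 0.46, where the median of all genes was 0.004. None of the 15 genes passed (limma with Benjamini-Hochberg adjustment), where 0.0284% of all genes were called higher and 0.0341% passed the adjusted p alone in that direction. An unadjusted p under 0.05 was reached by 10 of the 15 genes and by 14.2% of all genes. On the scaled values the SETD2 FL libraries lay above both KO libraries for 12 mRNAs and MT-RNR1, against 24.2% of all genes. MT-ND6, at 101 and 87.2 TPM in KO and 206 and 140 TPM with SETD2 FL, had the smallest adjusted p (0.200 from limma, SE 0.192). The SETD2 FL libraries differed, as library 3 was 1.339 to 1.503 times library 4 for the 13 mRNAs. Without library 3 the median log2 fold change was 0.19, and without library 4 it was 0.71.

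SETD2 C and SETD2 FL were both transfected, and their direct comparison gave the larger differences. The TPM of the SETD2 gene was itself 2.74 times higher with SETD2 C (log2 fold change 1.46, adjusted p = 7.82e-05 from limma). This value is per gene, and the constructs differ in length, so it need not give the level of the construct. The study reports no significant difference in mRNA level between the constructs in its RNA-seq data. Truncation and the level of the construct, as transcript or protein, cannot be told apart here. Of the 13 mRNAs, 11 were lower with SETD2 C past both limits, against 0.489% of all genes, and all 13 passed the adjusted p, against 14.5% (limma). The groups did not overlap for any of the 13, against 30.8% of all genes lower in this way. The log2 fold changes were -2.80 for MT-ATP8 (SE 0.158, adjusted p = 0.000234), -2.66 for MT-ATP6, -2.40 for MT-CYB, -2.36 for MT-CO2, -2.29 for MT-CO3, -2.21 for MT-ND6, -2.12 for MT-ND3 and -1.81 for MT-ND2. MT-ND4, MT-CO1 and MT-ND1 were near the fold limit, at -1.05, -1.01 and -1.01, and MT-ND4L and MT-ND5 were inside it, at -0.98 and -0.84. The 3 genes near the limit were inside it, with the adjusted p still passed, without scaling, with quantile normalization, without SETD2 FL library 3 and without SETD2 C library 1. The comparisons with KO share the KO libraries, so that their opposite directions are not independent.

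**Figure D5:**
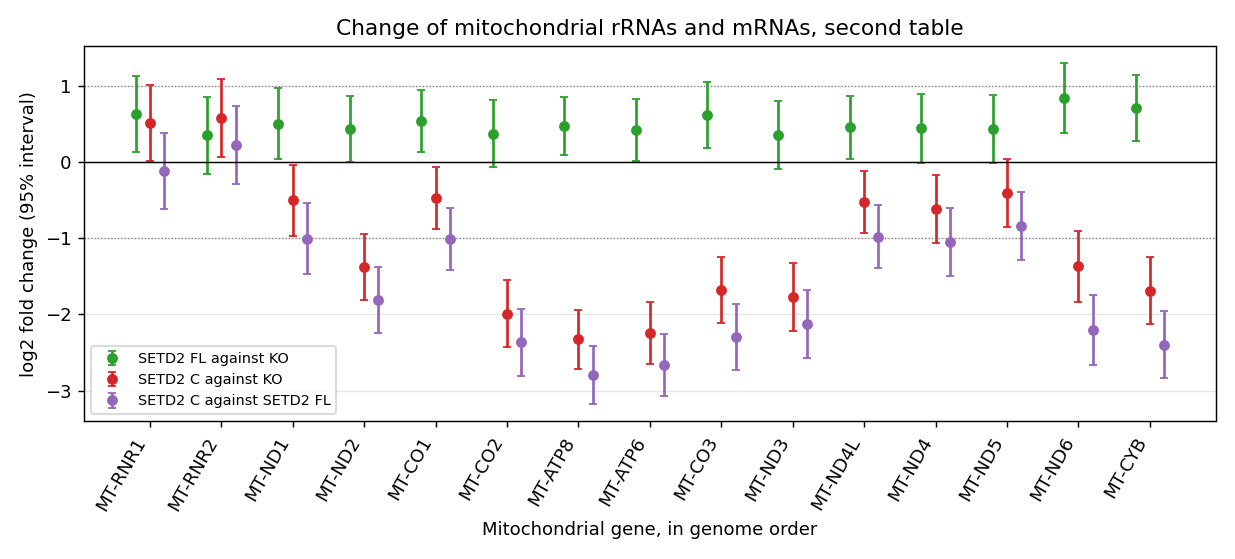
Log2 fold change with its 95% interval from limma for each rRNA and mRNA in genome order, for SETD2 FL against KO, SETD2 C against KO and SETD2 C against SETD2 FL; dotted lines mark a fold change of 2. All mRNA points for SETD2 C lie below 0, down to -2.80 for MT-ATP8, and all mRNA points for SETD2 FL against KO lie above it, between 0.36 and 0.84.

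In the first table the mitochondrial transcripts of the libraries labelled KO were lower than those of WT, but none passed the test at the settings used. All 13 mRNAs had a negative log2 fold change, from -1.05 for MT-CO1 and MT-ND6 to -0.48 for MT-ND2, with a median of -0.74. Exceptions were MT-ATP6 at 0.07 and MT-ATP8 and MT-CO3 at 0.00 under quantile normalization, and MT-ND3 at 0.02 without WT library 1. MT-RNR1 was 1736 and 936 TPM in WT and 576 and 550 TPM in KO, a log2 fold change of -1.31 (SE 0.343, adjusted p = 0.114 from limma). MT-RNR2 was 3828 and 2195 TPM in WT and 1390 and 1375 TPM in KO, a log2 fold change of -1.20 (SE 0.321, adjusted p = 0.118). None of the 15 genes passed, against 0.972% of all 16456 genes called lower and 1.85% lower by the adjusted p alone, and 6 of the 15 had an unadjusted p under 0.05, as did 22.5% of all genes. Without scaling, 13 of the 15 passed the adjusted p (all but MT-ND2 and MT-ND3), and both rRNAs were called lower. With quantile normalization 1 passed, MT-CO1. Both rRNAs and 11 mRNAs were lower in both KO libraries than in both WT libraries, against 28.5% of all genes.

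This comparison rested on the WT libraries, which differed from each other. WT library 1 was 1.41 to 2.61 times WT library 2 for each mRNA, with a median of 1.72, while the KO libraries of that table differed by a median factor of 1.001. MT-CO1, for example, was 18511 and 10102 TPM in WT and 7441 and 6999 TPM in KO. Without WT library 1 none of the 15 genes was called, with both rRNAs past the adjusted p (0.0296 for MT-RNR1 and 0.0409 for MT-RNR2, limma), and the median log2 fold change of the mRNAs was -0.23. Without WT library 2, all 15 passed the adjusted p, 12 of them were called lower and the median was -1.27, where the remaining WT library is assumed to vary as the KO libraries do. Scaling factors in this table were 0.88 for WT library 1 and 1.04 to 1.06 for the others.

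Nuclear copies of the mitochondrial genes, selected by their symbols, were listed too, and reads that fit both a gene and its copy make both levels uncertain. The tables list 407 such genes, of which 11 had a mean of at least 1 TPM in the first table and 5 in the second. Those of the 11 that were aligned were 94.9% to 99.1% identical to the mitochondrial gene over the aligned bases, and the rest of the 407 were not aligned. MTATP6P1 (chr1:633696-634376), a copy of MT-ATP6 with 671 of 681 bases identical (98.5%), was the highest. It was 959 and 801 TPM in KO of the second table, 1425 and 1084 TPM with SETD2 FL, and 203 and 214 TPM with SETD2 C. Its level was 11.4% to 12.3% of that of MT-ATP6 in each library of the second table and 21.5% to 22.7% in the first, and it fell by 2.22 on the log2 scale with SETD2 C against KO (adjusted p = 0.000517), close to MT-ATP6 itself. MTND2P28, a copy of MT-ND2, was at 1.98% to 2.46% of MT-ND2 in the second table. The share of all TPM taken up by the mRNAs together with their copies was 2.43 times lower with SETD2 C than in KO, against 2.42 times without the copies.

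Nuclear genes that make or maintain mitochondrial RNA had smaller fold changes. Of 47 genes for mitochondrial DNA maintenance, transcription, RNA processing and RNA stability, none was called in any of the 4 comparisons (limma), with 24 at an unadjusted p under 0.05 between SETD2 C and KO, 26 between SETD2 C and SETD2 FL, 7 between SETD2 FL and KO and 10 between KO and WT. Over all genes 43.3%, 45.2%, 14.2% and 22.5% had such a p in these 4 comparisons. In the same order, 0.449%, 0.489%, 0.00569% and 0.972% of all genes were called lower, and 3.76%, 3.47%, 0.0284% and 0.359% were called higher. By the adjusted p alone, 16 were lower and 1 higher with SETD2 C against KO, where 12.9% and 17.5% of all genes were, and 21 were lower and 2 higher against SETD2 FL, where 14.5% and 17.7% were. Their median log2 fold changes were -0.13 and -0.20. POLRMT, the mitochondrial RNA polymerase, was 79.1 and 70.9 TPM in KO and 66.4 and 61.4 TPM with SETD2 C, a log2 fold change of -0.38 (SE 0.074, adjusted p = 0.0123). TFAM, which packages mitochondrial DNA and starts its transcription, had a log2 fold change of 0.07 (SE 0.064, adjusted p = 0.455), and TEFM, the elongation factor, of -0.03 (adjusted p = 0.864). LRPPRC and SLIRP, which bind and stabilise the mRNAs, had log2 fold changes of -0.13 and -0.01 (adjusted p = 0.111 and 0.875). TRMT10C and HSD17B10, 2 of the subunits of mitochondrial RNase P, fell by 0.47 and 0.44 on the log2 scale (adjusted p = 0.00307 and 0.00457), and TWNK, the helicase of mitochondrial DNA, by 0.58 (adjusted p = 0.0111). Between KO and WT, FASTK (-0.68) was lower and TACO1 (0.44) and MRM3 (0.42) were higher by the adjusted p, where 1.85% and 0.766% of all genes were.

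The nuclear-encoded partners in the same complexes also had small fold changes. Of 75 nuclear-encoded respiratory chain and ATP synthase subunits none was called with SETD2 C against KO, where 0.449% of all genes were called lower and 3.76% higher. An unadjusted p under 0.05 was reached by 36 of them (43.3% of all genes). By the adjusted p alone 29 were lower and 1 was higher (12.9% and 17.5% of all genes), with a median log2 fold change of -0.11. The largest decrease was in ATP5MC1, a subunit of the ATP synthase ring, at 408 and 425 TPM in KO and 304 and 251 TPM with SETD2 C (log2 fold change -0.74, SE 0.098, adjusted p = 0.00369). All 15 nuclear subunits of complex V ranged from -0.74 to 0.13, against -2.33 and -2.24 for the 2 mitochondrial ones.

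Among 11 genes of mitophagy, the removal of mitochondria by autophagy, 2 rose by more than 2-fold with SETD2 C. BNIP3, a mitophagy receptor of the outer membrane, was 60.3 and 65.6 TPM in KO, 55.9 and 57.6 TPM with SETD2 FL, and 194 and 201 TPM with SETD2 C (log2 fold change of 1.49 against KO, SE 0.058, adjusted p = 7.83e-05, and of 1.66 against SETD2 FL). BNIP3L, its relative, was 26.5 and 27.2 TPM in KO, 25.1 and 27.4 TPM with SETD2 FL, and 65.1 and 73.1 TPM with SETD2 C (log2 fold change of 1.20 against KO and 1.25 against SETD2 FL, adjusted p = 0.000257 and 0.000211). Of all genes, 3.76% were called higher against KO and 3.47% against SETD2 FL. OPTN, a receptor for ubiquitin-tagged mitochondria, passed the adjusted p alone, at 0.95 against KO, and PHB2 was lower, at -0.46. Of all genes, 17.5% were higher and 12.9% lower in this way. The median log2 fold change of the mitophagy genes against KO was 0.13. A link between these genes and the level of the mitochondrial mRNAs was not tested.

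Properties of the members were set against their change as a description. Across the 13 mRNAs, which share precursors and libraries, the log2 fold change of SETD2 C against KO had a Pearson r of 0.6 and a Spearman rho of 0.61 with gene length, the longer mRNAs being less lowered. It had a Pearson r of 0.38 with GC content and -0.08 with position along the genome. With the log2 TPM in KO the r was -0.35 and the rho -0.62, and the KO level is also part of the fold change. For SETD2 C against SETD2 FL the r with length was 0.59 and the rho 0.44. For SETD2 FL against KO they were 0.02 and 0.13.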

How the data were processed

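HEK293T RNA was measured in 10 libraries. The labels and the study's methods give STAR 2.6.1c alignment to hg38 and RSEM 1.3.0. The authors deposited TPM per gene in 2 tables, with no normalization between libraries. The labels name both rRNA depletion and poly(A) enrichment and do not assign them to libraries. The edgeR counts and the ChIP-seq samples were not analysed here.

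Each library was scaled by its median TPM ratio to the other libraries, taken over genes outside the mitochondrial genome with at least 1 TPM in every library of a table (13559 and 13620 genes). limma 3.58.1 (R 4.3.3, eBayes with trend, two-sided) was run on the log2 of scaled TPM plus 0.5, so that fold changes of genes with low TPM are understated. Genes of all types with at least 0.5 TPM in at least 2 libraries entered, 16456 in the first table and 17579 in the second, since the study's limit to protein-coding and lncRNA genes drops rRNAs. A single fit held all 6 libraries of the second table. A gene was called when its fold change reached 2 with an adjusted p (Benjamini-Hochberg) no higher than 0.05, the study's limits. The members were also described by their share of TPM and their ratios, with exact permutation tests in scipy 1.17.1. All 37 members were named. From the lists of nuclear genes, those with the largest change past the adjusted p were named, besides POLRMT, TFAM, TEFM, LRPPRC and SLIRP. Positions and lengths came from GENCODE 44 on GRCh38, in which all 37 members matched by identifier. The scripts were tested on simulated data. The members and lists were chosen with earlier results of these data known.

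Alternatives were other pseudocounts (0.1 and 1), filters, scalings and gene types, copies added to their parent genes, eBayes without trend, the adjusted p alone, separate fits, a replicate block, and each library left out in turn. The adjusted p alone repeats the adjusted p values of the main fit. In counts of alternatives in which a gene passed the adjusted p, it is therefore no separate test.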

Additional observations from a re-analysis of the deposited data

Results flagged for a closer look

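For 11 of the 13 mitochondrial mRNAs the log2 fold change against KO was positive with SETD2 FL and negative with SETD2 C, and the difference itself, SETD2 C against SETD2 FL, passed limma's test at a fold change of at least 2. Its log2 value was -1.01 for MT-ND1, -1.81 for MT-ND2, -1.01 for MT-CO1, -2.36 for MT-CO2, -2.80 for MT-ATP8, -2.66 for MT-ATP6, -2.29 for MT-CO3, -2.12 for MT-ND3, -1.05 for MT-ND4, -2.21 for MT-ND6 and -2.40 for MT-CYB. Both directions are taken from the same 2 KO libraries, and the SETD2 FL values did not pass the test against KO.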

How the results depend on the processing

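Between SETD2 C and KO, 8 mitochondrial genes were called under every alternative except the adjusted p alone, which gave 9, and between SETD2 FL and KO none was called under any. Between SETD2 C and SETD2 FL the number called was 8 to 13. Without the fold limit, 8 of the 15 genes passed the adjusted p for SETD2 C against KO with no filter, and 14 in a fit of only those groups. TPM without scaling moved the median of all genes to 0.18 for SETD2 C against KO, 0.17 for SETD2 C against SETD2 FL and 0.11 for KO against WT. It gave a median of the 13 mRNAs of -1.22 for SETD2 C against KO, 2 mitochondrial genes called between KO and WT (both rRNAs) and 15 genes of any kind between SETD2 FL and KO. The median of the mRNAs between KO and WT was -0.24 with quantile normalization. Leaving out 1 library at a time, it was -1.27 to -0.23 between KO and WT, with 0 to 12 mitochondrial genes called, -1.52 to -1.27 for SETD2 C against KO and -2.45 to -1.80 for SETD2 C against SETD2 FL.

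Counts over all genes moved more. The 740 genes called for SETD2 C against KO became 434 with a pseudocount of 1, 333 with at least 1 TPM in every library and 5333 by the adjusted p alone. The 696 genes for SETD2 C against SETD2 FL became 426, 342 and 5663. The 219 genes for KO against WT became 30 without a filter, 90 with at least 1 TPM in every library, 430 by the adjusted p alone and 77 to 209 with 1 library left out. The 6 genes for SETD2 FL against KO became 19 with TPM rescaled without the mitochondrial genes and SETD2, 13 with protein-coding, lncRNA and mitochondrial genes, 16 without trend, 21 in a fit of only those groups and 3 to 20 with 1 library left out. Scaling also moved the split between higher and lower calls. For SETD2 C against KO it was 661 higher and 79 lower, but 380 and 163 with quantile normalization. For SETD2 C against SETD2 FL it was 610 and 86, but 379 and 158. For KO against WT it was 59 and 160, but 111 and 182 without scaling. For SETD2 FL against KO it was 5 and 1, but 10 and 5 without scaling, 5 and 4 with quantile normalization and 13 and 6 with rescaled TPM. The causes were not tested.

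In the first table WT and KO carry the same replicate numbers, but nothing else pairs them. The correlation of deviations between libraries of the same number was 0.068. This is a single value, since with 2 libraries in a group both pairs must give the same. With a replicate block 220 genes were called there, none of them mitochondrial. The groups of the second table share fewer than 2 numbers, so no block could be fitted. With 2 libraries in a group, TPM and no counts, the precision at each level of expression is unknown.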
